A study of Homo sapiens with 14 samples.

Results

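All 5581 peaks of a RUNX1 chromatin immunoprecipitation sequencing (ChIP-seq) experiment in HL60 cells were described, gene by gene and by position. They are every peak of the RUNX1 list, out of 88872 peaks in the 4 lists used. HL60 is an established human acute myeloid leukaemia line with promyelocyte-like features, which can be driven to mature into granulocyte-like or monocyte-like cells. The RUNX1 sample came from unmodified HL60 cells and the anti-RUNX1 antibody ab23980 of Abcam. The other 3 lists map SKI, a transcriptional corepressor, with the antibody sc-9140 of Santa Cruz. SKI replicates 1 and 2 came from unmodified cells, with 54841 and 14431 peaks, and the third SKI list, with 14019 peaks, came from CRISPR/Cas9 control cells. No treatment is named in the labels for any of these samples. A further 10 samples in the series were not used here.

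RUNX1 binds DNA through its runt domain, and binds more firmly when paired with CBFB, a partner that does not touch DNA itself. The blood stem cells of the embryo do not form without RUNX1. Later it acts in myeloid, lymphoid and megakaryocytic cells as an activator or a repressor, depending on the cofactors at a site. The gene is a frequent target of translocations and point mutations in acute myeloid leukaemia. Its binding sequence has the core TGTGGT or TGCGGT.

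Promoter sequences are shown first, because the letters that RUNX1 recognises can be read in them. The genome sequence of the build of the peaks, hg19, was not used here, so promoters were taken from a RefSeq table on GRCh38.p14, with 300 bases a gene, from 250 before the start to 50 after it. The table holds 1 start a gene, which need not be the start nearest to the peak. Peak positions stay on hg19 and promoter positions on GRCh38.p14, and no position was converted. A window can therefore lie away from the peak of its gene, and a match need not lie under that peak. DMWD was chosen by the fold enrichment of its promoter peak. IL6R, NLRP3, NFKB2 and ASB2 are members of the gene lists described further on, and were chosen for display after their values were seen. Each had a peak with its summit from 250 bp before to 50 bp after a deposited start. Each line gives the 250 bases before the start, 5′ to 3′ on the strand of the gene, and capitals mark TGTGGT or TGCGGT or the reverse complement of either (ACCACA or ACCGCA).
DMWD: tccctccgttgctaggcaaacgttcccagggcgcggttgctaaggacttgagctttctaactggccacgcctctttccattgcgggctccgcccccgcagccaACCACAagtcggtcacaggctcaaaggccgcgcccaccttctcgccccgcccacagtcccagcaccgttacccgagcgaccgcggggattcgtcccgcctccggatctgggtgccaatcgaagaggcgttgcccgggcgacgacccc
IL6R: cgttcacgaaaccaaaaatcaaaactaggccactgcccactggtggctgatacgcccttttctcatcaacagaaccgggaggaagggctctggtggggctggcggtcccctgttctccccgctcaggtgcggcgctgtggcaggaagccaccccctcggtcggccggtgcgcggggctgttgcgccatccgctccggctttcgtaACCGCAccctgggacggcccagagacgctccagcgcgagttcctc
NLRP3: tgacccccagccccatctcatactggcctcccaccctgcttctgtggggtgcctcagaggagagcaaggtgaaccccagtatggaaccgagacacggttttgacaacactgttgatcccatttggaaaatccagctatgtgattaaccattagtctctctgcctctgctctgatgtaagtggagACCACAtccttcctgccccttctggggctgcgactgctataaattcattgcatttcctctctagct
NFKB2: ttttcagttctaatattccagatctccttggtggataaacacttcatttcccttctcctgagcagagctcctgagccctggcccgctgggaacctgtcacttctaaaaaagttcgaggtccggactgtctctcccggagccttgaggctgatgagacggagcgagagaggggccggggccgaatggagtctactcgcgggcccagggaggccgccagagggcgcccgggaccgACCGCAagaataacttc
ASB2: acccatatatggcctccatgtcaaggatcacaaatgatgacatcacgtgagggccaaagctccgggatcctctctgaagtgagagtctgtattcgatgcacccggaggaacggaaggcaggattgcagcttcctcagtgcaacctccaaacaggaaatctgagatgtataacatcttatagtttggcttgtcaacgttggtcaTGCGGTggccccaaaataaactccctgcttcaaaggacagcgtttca

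The DMWD promoter lies at chr19:45792846-45793095 on the minus strand (GRCh38.p14), and its match began 147 bases before the start. Its peak, chr19:46294069-46294784 on hg19, had 384 tags and a fold enrichment of 117.2, with the summit 137 bp upstream of the nearest start. Tags are the reads that MACS, the peak caller, counted in a peak, and fold enrichment is its ratio of tags over background. The IL6R promoter lies at chr1:154405093-154405342 on the plus strand and had its match 45 bases before the start. IL6R encodes the ligand-binding chain of the interleukin-6 receptor, and its promoter peak (hg19 chr1:154377416-154378564) had 124 tags and a fold enrichment of 25.64. In NLRP3, the inflammasome sensor gene, the promoter lies at chr1:247415923-247416172 on the plus strand. Its match stood 66 bases before the start, and the peak, hg19 chr1:247579166-247579622, had 49 tags at a fold enrichment of 20.16. NFKB2, which encodes the p100 precursor of a non-canonical NF-kappaB subunit, has its promoter at chr10:102393860-102394109 on the plus strand. There the match stood 17 bases before the start, and the peak of the gene had 53 tags and a fold enrichment of 18.4 (hg19 chr10:104153646-104154092). ASB2, a retinoic acid-induced ubiquitin ligase subunit gene, has its promoter at chr14:93976571-93976820 on the minus strand, with the match 47 bases before the start. The peak assigned to ASB2 had 50 tags and a fold enrichment of 17.86 (hg19 chr14:94421455-94421994). Of the 5 promoters that the naming rule selected, DMWD was the only one with a match. HELZ2 (fold enrichment 158.33), GNB5 (91.58), GARNL3 (87.8) and CRK (85.18) held none of these letters in their RefSeq windows. The sequence under these peaks was not searched. Among the list members, the genes with 4 or more peaks and the most tagged peaks, 24 genes had such a summit and a promoter sequence. Such a summit lay from 250 bp before to 50 bp after a deposited start, which need not be the RefSeq start. A match stood in the RefSeq windows of 5 of them (20.8%, 95% Wilson interval 9.24% to 40.5%), namely IL6R, NLRP3, NFKB2, ASB2 and CCR1. The other 19 had none, among them RUNX1, GFI1, CCND3, RARA, SMAD7, CTSG and CAMP. Their windows need not lie at their peaks, so these counts do not describe the sequence under the peaks.

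Over all genes, a RUNX match stood in 18.6% of 15843 promoters of 300 bases (95% Wilson interval 18% to 19.3%). Among the 625 promoters of genes with a RUNX1 peak within 1 kb of a transcription start site (TSS), 29.6% held one (26.2% to 33.3%). When the summit lay from 250 bp before to 50 bp after the deposited TSS, the share was 42.2% of 306 promoters (36.8% to 47.8%). That TSS need not be the RefSeq start. The 2164 promoters with SKI in every SKI list and no RUNX1 peak gave 18.2% (16.6% to 19.9%), within the interval of all promoters. The share was 32.2% of 311 promoters whose peak had a fold enrichment of 17.86 or more and 27.1% of 314 below it, and these intervals overlapped (27.2% to 37.5% and 22.5% to 32.2%). With TGTGGT alone the share was 15% at peaks within 1 kb, against 10.8% of all promoters.

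Motifs of other factors were searched on both strands with no exclusion of overlaps. The ETS core GGAAGT was in 32.7% of the 306 promoters with such a summit near the deposited TSS (27.7% to 38.1%) and in 24.8% of all promoters. At promoters with SKI and no RUNX1 peak, GGAAGT was found in 27.5%. The AP-1 motif TGANTCA stood in 7.19% (4.8% to 10.6%) against 5.75% of all, and the CEBP motif TTGCNNAA in 10.8% (7.78% to 14.8%) against 8.36%. Both of these intervals included the share of all promoters. A match describes letters in these windows and does not show that a factor was bound there.

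RUNX1 peaks were narrow, and most carried few tags. The median peak had 56 tags (quartiles 42 and 86, highest 638), a width of 553 bp (480 and 669, widest 2807) and a fold enrichment of 18.32 (12.23 and 28.93, highest 217.39). In the SKI lists of unmodified replicates 1 and 2 and control cells, median tags were 97, 56 and 61. Their median widths were 710, 472 and 691 bp. The tenth of RUNX1 peaks with most tags, 558 peaks, held 28.38% of all tags in peaks. The weaker end comprised 193 peaks with under 35 tags and 160 with a fold enrichment under 5. Across the 5581 peaks, the Spearman correlation was 0.640 between tags and fold enrichment, 0.577 between tags and width, and 0.138 between fold enrichment and width. These correlations describe peaks of 1 library that share a depth and a background model. As RUNX1 was mapped in 1 sample, no value here has a replicate, and tests compare lists, with no measure of how cultures vary.

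Most RUNX1 peaks lay away from transcription start sites. Measured from the summit to the nearest TSS, as deposited, 1081 of 5577 peaks (19.4%, 18.4% to 20.4%) were within 1 kb and 594 (10.7%, 9.87% to 11.5%) within 250 bp. The median distance was 7092 bp. Within 10 kb lay 58.1% of the peaks and within 100 kb 97.3%, which left 153 farther out. SKI peaks were closer, with 30%, 48.5% and 43% within 1 kb in unmodified replicates 1 and 2 and in the control cells, and median distances of 4275, 1167 and 1955 bp. Near the TSS the upstream side held more peaks. Of those within 250 bp, 370 were upstream and 221 downstream, and 3 lay on the start itself. The 250 bp just upstream held 6.63% of all RUNX1 peaks, against 4% in the 250 bp just downstream and 1.76% in the next 250 bp upstream. The SKI lists had 7067 upstream and 4192 downstream within 250 bp for unmodified replicate 1. The counts were 2917 and 2106 for replicate 2, and 2116 and 1984 for the control cells.

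**Figure D1:**
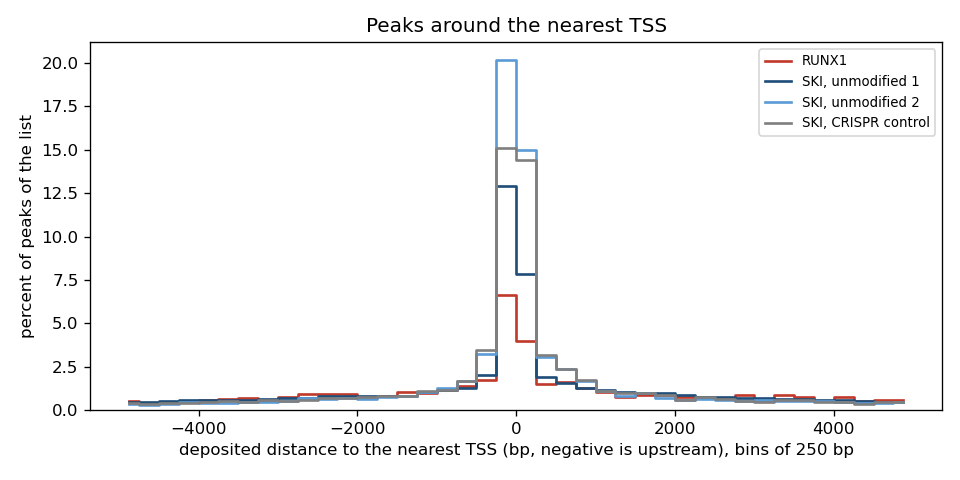
Percent of the peaks of each list (y axis) by the deposited signed distance to the nearest TSS in bins of 250 bp (x axis, bp, negative is upstream), 1 line per list. The RUNX1 line peaks just upstream of the TSS at 6.63%, below each SKI list.

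Median strength spanned a narrow range over distance. Median fold enrichment was 16.395 within 250 bp of a TSS, 18.25 from there to 1 kb, and 20.06 between 1 and 2.5 kb. It was 18.85 between 25 and 50 kb and 14.65 beyond 100 kb. In the SKI list of control cells the medians ran from 10.14 within 250 bp to 15.34 between 50 and 100 kb.

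RUNX1 peaks were more often intronic or intergenic than SKI peaks, and less often at a TSS. In the authors' position classes, whose header gives 1250 bp for the TSS class and 5000 bp for upstream, 2049 RUNX1 peaks (36.7%, 35.5% to 38%) were in introns and 1564 (28%) were intergenic. A further 1313 (23.5%, 22.4% to 24.7%) were in the TSS class, 352 (6.31%) in the upstream class and 303 (5.43%) in exons. The upstream class also held peaks downstream of the TSS by the deposited distance, such as those of DUSP6 (4665 bp) and PMAIP1 (4944 bp). Measured from the summit, RUNX1 peaks lay up to 1909 bp from a TSS in the TSS class and 1554 to 5636 bp in the upstream class. These distances go past the limits in the header. The TSS class took 35.2%, 52.4% and 48% of the SKI peaks of unmodified replicates 1 and 2 and of control cells. Each class was set against each SKI list by a two-sided Fisher's exact test, and the 15 p-values were adjusted by the Benjamini-Hochberg method. The odds ratios of the TSS class were 0.566, 0.279 and 0.333 (Fisher's exact test, adjusted p = 3.02e-72, 6.29e-311 and 1.29e-226). Introns held 30.5%, 22.3% and 25.1% of SKI peaks, with odds ratios of 1.32, 2.02 and 1.73 (exact test, adjusted p = 1.3e-20, 4.35e-91 and 1.7e-57). Intergenic peaks had odds ratios of 1.34, 2.01 and 1.83 (exact test, adjusted p = 5.18e-20, 2.99e-75 and 1.84e-57). In all, 13 of 15 comparisons passed 0.05. The 2 that did not were upstream and exonic peaks against unmodified replicate 1, with odds ratios of 1.01 and 0.982 (exact test, adjusted p = 0.908 and 0.863). Neighbouring peaks are not independent, so these p-values are too small. With each SKI list held to the length of the RUNX1 list, 12 passed. Exonic peaks against control cells and upstream peaks against unmodified replicate 2 were lost (exact test, adjusted p = 0.526 and 0.526), and upstream peaks against unmodified replicate 1 were gained (0.0354).

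**Figure D2:**
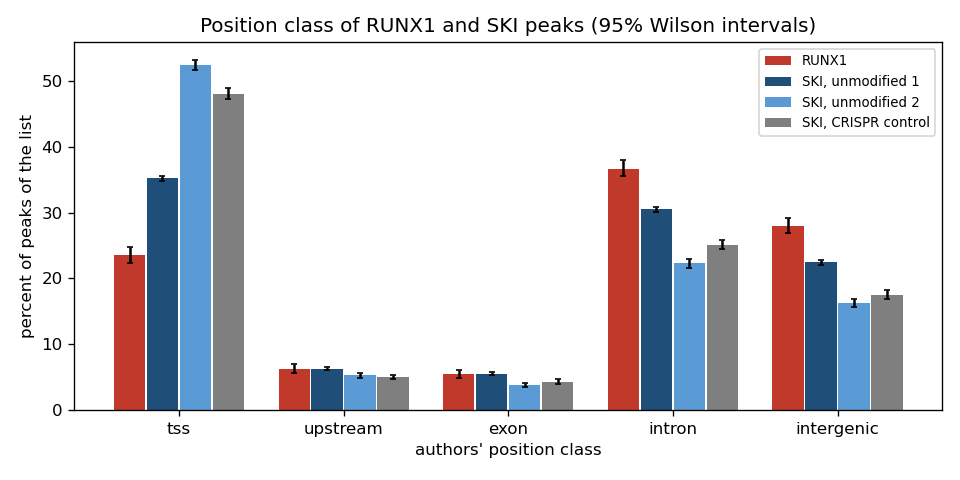
Percent of the peaks of each list (y axis, bars, with 95% Wilson intervals as error bars) in each position class of the authors (x axis). RUNX1 is lowest in the TSS class, at 23.5%, and highest in introns (36.7%) and intergenic sequence (28%).

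Median fold enrichment was 20.86 in exons, 18.91 in introns, 18.395 upstream, 17.86 at the TSS and 17.73 in intergenic sequence, a range of 3.13. The quartiles of single peaks at the TSS were 11.9 and 28.01. Median widths ran from 548 bp for intergenic peaks to 566 bp at the TSS, and median tags from 53 at the TSS to 60 upstream and in exons. The strongest peak by fold enrichment, 217.39, was intergenic. By the type of the nearest gene, 3176 peaks (56.9%) were assigned to protein-coding genes, 781 (14%) to pseudogenes, 636 (11.4%) to lincRNAs, 327 (5.86%) to antisense RNAs and 189 (3.39%) to microRNAs.

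RUNX1 peaks were spread thinly over genes. The 5581 peaks named 4218 nearest genes, and 3347 of these names (79.4%) had a single peak. There were 611 names with 2 peaks and 167 with 3. Names with 4 or more peaks numbered 93, or 2.2% of all. The count is by the name of the nearest transcript's gene, and 6 of the 93 names belong to short RNAs with several loci. Among them were Y_RNA, with 52 peaks at 46 gene IDs, snoU13, with 25 peaks at 22 IDs, and U3, with 12 peaks at 8 IDs. The 87 names of a single gene comprised 58 protein-coding genes, 9 pseudogenes, 9 lincRNAs and a few genes of other types. Together they held 406 peaks, or 7.27% of all.

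RUNX1 itself had 8 peaks, 6 in introns and 2 in the TSS class, from position 36180458 to 36422041 of chromosome 21 (hg19). The gene is transcribed from a distal and a proximal promoter, and both peaks of the TSS class lay within 1 kb of a listed start. In order along the chromosome the fold enrichments were 46.92, 103.85, 51.8, 35.71, 9.52, 19.36, 61.4 and 42.44. The peak at chr21:36420934-36422041 had its summit 48 bp from a TSS, and 191 tags. The peak at chr21:36260084-36260763 was 634 bp from another TSS, with 153 tags. The highest fold enrichment, 103.85, was in the intron, at chr21:36237717-36238387 and 6186 bp from a TSS, and the most tags, 393, were at chr21:36398216-36399727. Of the 8 peaks, 7 were above the median fold enrichment of all RUNX1 peaks, and 6 overlapped a SKI peak in every SKI list, as did 54.5% of all RUNX1 peaks.

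Among other genes with many peaks, RP11-96C21.1, a lincRNA gene on chromosome 15, had 6, all strong. Their fold enrichments were 31.9, 61.22, 127.58, 112.64, 108.06 and 37.48, and each overlapped a SKI peak in every list. They lay from chr15:70740190-70740725 to chr15:70801363-70802024, and 5 were in the intergenic class and 1 in the upstream class. CYTH4, which encodes a cytohesin-type exchange factor for ARF GTPases, had 7 peaks with fold enrichments of 9.32, 16.16, 26.08, 14.53, 142.86, 7.14 and 35.71. The strongest of these, chr22:37702625-37703962 in an intron, carried 558 tags, more than the other 6 together. MBP, the myelin basic protein gene, whose locus also gives transcripts in blood cells, had 10 peaks between 6.16 and 50.6, with 8 of them at 13.74 or less. IFNGR1, the ligand-binding chain of the interferon-gamma receptor, had 7 between 5.44 and 25.24. For this gene 5 of the peaks were intergenic, up to 132609 bp upstream of the TSS, and 2 were in the TSS class.

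FNDC3B (a fibronectin type III domain protein), TOX2 (an HMG-box factor), MYCBP2 (a ubiquitin ligase) and RASA3 (a Ras GTPase-activating protein) had 6 peaks each, with highest fold enrichments of 71.43, 55.27, 18.08 and 19.08. SMAD7, the inhibitory SMAD that limits TGF-beta signalling, also had 6, from 7.25 to 21.52, of which 3 were in the TSS class. SKI, the gene of the corepressor mapped in the other lists, had 5 RUNX1 peaks. The peak 1139 bp upstream of its TSS, chr1:2158661-2159201, had a fold enrichment of 50.6 and 98 tags, and an intronic peak, chr1:2221850-2222835, had 37.09 and 246 tags. The other 3 RUNX1 peaks at SKI, also intronic, were at 17.94, 7.28 and 11.54.

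Of genes with 4 or 5 peaks, BPI, which encodes a bactericidal protein of neutrophil granules, had its strongest peak 59 bp upstream of the TSS, at chr20:36931781-36932907, with a fold enrichment of 153.18 and 440 tags. The other 3 peaks at BPI were at 22.11, 11.9 and 72.91. CCND3, the cyclin D3 gene, had peaks at 69.61, 23.08, 72 and 15.48, each in all 3 SKI lists. ITGB2, the shared beta chain of the leukocyte integrins, differed in shape. Its 4 peaks were all in the TSS class, lay between 15.08 and 27.26, and had 37 to 44 tags. A pair of further genes was chosen after the values were seen. ALOX5AP, needed for leukotriene synthesis, had 5 peaks, the strongest in an intron at 79.37, and TMCC2 had 4 intergenic peaks within 4061 bp, at 15.5, 32.95, 116.94 and 98.01.

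**Figure D3:**
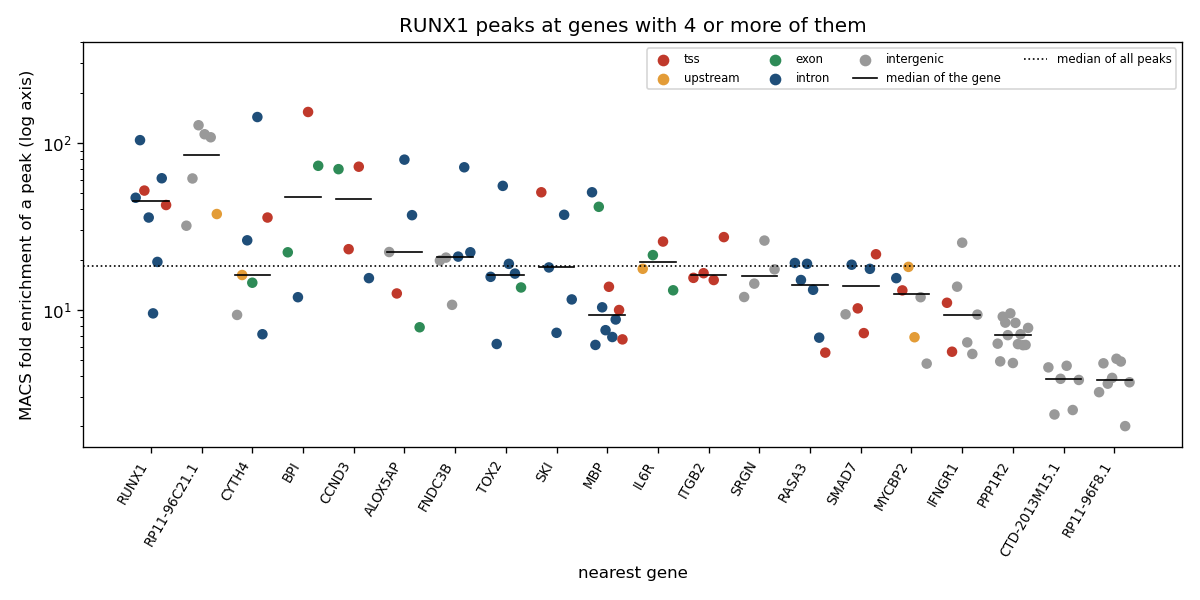
Fold enrichment of each RUNX1 peak (y axis, log scale) at 20 genes with 4 or more peaks (x axis), coloured by position class, with the median of the gene as a bar and the median of all peaks, 18.32, as a dotted line. RUNX1 and RP11-96C21.1 lie mostly above the line, and every peak of PPP1R2, CTD-2013M15.1 and RP11-96F8.1 lies below it.

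Not every gene with many peaks had strong ones. PPP1R2, an inhibitor of protein phosphatase 1, had the most peaks of any single gene, 13, all intergenic and within 21863 bp (chr3, 195211503 to 195233365). Their fold enrichments ran from 4.8 to 9.52, and none overlapped a SKI peak of any list. The 8 peaks assigned to the pseudogene RP11-96F8.1 on chromosome 10 were between 2.01 and 5.09, and the 6 assigned to the lincRNA gene CTD-2013M15.1 on chromosome 5 between 2.36 and 4.62. None of these peaks overlapped a SKI peak of any list, and those at CTD-2013M15.1 lay 443173 to 514997 bp from its TSS. In all, 6 of the 87 single-gene names had no peak with a fold enrichment of 10 or more, whereas 21 had one of 50 or more.

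The 406 peaks of the 87 genes were compared with the 3347 peaks of genes with 1 peak, as a description. Median fold enrichment was 16.33 against 18.8, with overlapping quartiles (9.75 to 25.89 and 12.655 to 29.085). Introns held 43.1% (38.4% to 48%) against 34.7% (33.1% to 36.3%), and the TSS class 15% (11.9% to 18.8%) against 26.8% (25.3% to 28.3%). Of all RUNX1 peaks, 54.5% (53.2% to 55.8%) overlapped a SKI peak of every list and 4.87% one of no list. For the 87 genes and those with 1 peak, the share in every SKI list was 53.2% (48.3% to 58%) against 54.2% (52.5% to 55.9%), within each other's intervals. The share in no SKI list was 11.8% (9.03% to 15.3%) against 3.82% (3.23% to 4.53%). Of the 87 genes, 6 had no fold enrichment of 10 or more. Those 6 held 44 peaks, all intergenic and in no SKI list, with a median fold enrichment of 4.34. Of the 87 genes, 1 lay on Y, and it was among these 6. Whether these weak peaks mark RUNX1 binding was not tested. The 362 peaks of the other 81 genes gave 1.1% in no SKI list (0.431% to 2.81%), 59.7% in every SKI list (54.5% to 64.6%), 26.2% intergenic, 48.3% intronic and a median fold enrichment of 17.925. Genes with 1 peak were not filtered by fold enrichment, so the values of the 81 genes cannot be set against theirs. Gene length was not adjusted for. Of the 87 genes, 47 had no peak in the TSS class, 17 had intronic peaks only and 16 intergenic peaks only. The threshold of 4 leaves out genes with 3 strong peaks, such as MSI2, an RNA-binding protein gene, whose lowest and highest peaks were at 51.86 and 81.1. There were 65 names just inside the threshold, with 4 peaks, among them RHOH, a small GTPase gene of blood cells, with values from 7.74 to 18.94.

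The 20 peaks with most tags were strong by fold enrichment as well, with 1 exception, and few were near a TSS. They held 413 to 638 tags, and the peak ranked next had 411. Their fold enrichments ran from 27.74 to 156.25, with a median of 105.955, and their median width was 1004.5 bp. By class 8 were intronic, 7 intergenic, 2 exonic, 1 upstream and 2 at a TSS. A SKI peak of every list overlapped 16 of the 20, where the share over all RUNX1 peaks was 54.5%, and SKI peaks of 2 lists overlapped 3 more. An overlap of 1 bp sufficed, the median width of all RUNX1 peaks was only 553 bp, and width was not adjusted for. The peak with most tags, 638, was in an exon and assigned to IQCD (chr12:113645803-113647152, fold enrichment 89.57, 12690 bp from the TSS). The second, with 634 tags and a fold enrichment of 148.65, was intergenic and nearest to the rRNA gene RNA5SP365 (chr12:90127034-90128192).

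Those at a TSS were AE000662.92 (603 tags, 104.5) and BPI (440 tags, 153.18). An intron peak assigned to ZNRF3, a membrane ubiquitin ligase gene that limits WNT signalling, and an intergenic peak 23399 bp from RPN1, a subunit gene of the oligosaccharyltransferase, both had 595 tags. Their fold enrichments were 125.54 and 91.58. A pair of peaks lay over neighbouring receptor genes on chromosome 6, in introns of IL20RA (525 tags, chr6:137354889-137355629) and IL22RA2 (467 tags, chr6:137476668-137477609). The others of the 20 with a fold enrichment above 100 were those assigned to CYTH4 (142.86), ARHGEF12, a guanine nucleotide exchange factor gene (156.25), RP11-86H7.6 (106.65), TTC28 (105.26), RXRG, a retinoid X receptor gene (130.33), CHST12, a sulfotransferase gene (110.86), CTDP1, a phosphatase gene for the RNA polymerase II tail (122.07), and GMDS-AS1 (155.49). TSPAN9-IT1 (95.24), MORN3 (99.99), IL22RA2 (79.43), IL20RA (92.62) and GPR18, a G protein-coupled receptor gene (63.13), were below. The exception, an intergenic peak assigned to the pseudogene Z95704.4 on chromosome 4, had 413 tags at a fold enrichment of 27.74, rank 1514 in that measure, and overlapped a SKI peak in 1 list only. A single gene gave both many peaks and a peak of the top 20 in the cases of CYTH4 and BPI.

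**Figure D4:**
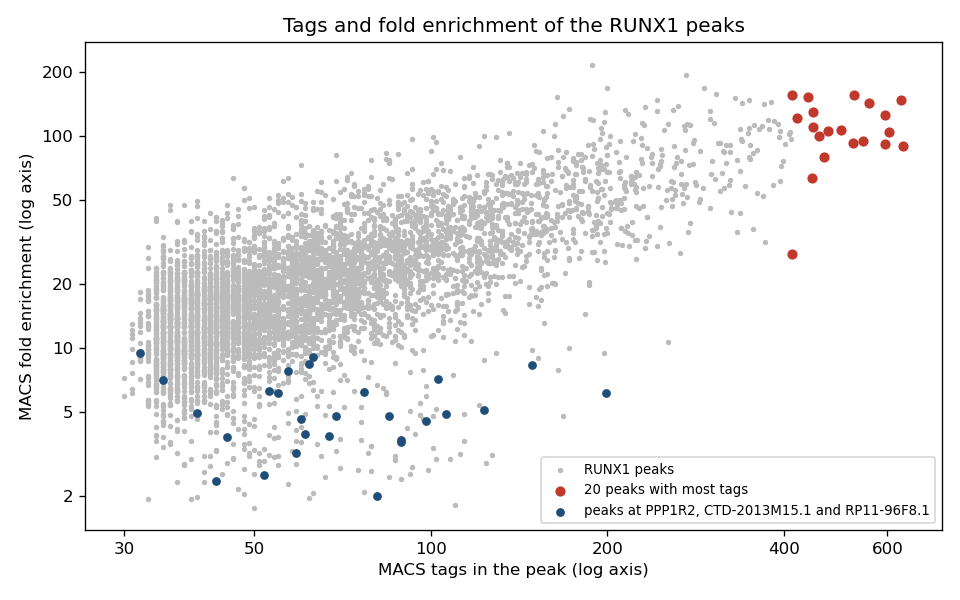
Fold enrichment (y axis, log scale) against tags (x axis, log scale) of each RUNX1 peak, with the 20 peaks of most tags in red and the peaks at PPP1R2, CTD-2013M15.1 and RP11-96F8.1 in blue. Of the 20, 19 lie at a fold enrichment of 63.13 or more, and the blue peaks lie at 9.52 or less.

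Gene lists were read for how many members were the nearest gene of at least 1 RUNX1 peak. Over all 20056 protein-coding symbols this was so for 2277, or 11.4%. Of the granule and phagocyte oxidase genes, 14 of 24 had a peak (58.3%, 38.8% to 75.5%). Shares between 41.7% and 56.5% were found for 7 further lists. They comprised 13 of 23 growth factor and cytokine receptor genes (56.5%), 11 of 24 adhesion and surface receptor genes (45.8%), 11 of 24 JAK, STAT and MAP kinase feedback genes (45.8%), 8 of 18 RUNX family, partner and cofactor genes (44.4%), 11 of 25 retinoid and TGF-beta pathway genes (44%), 14 of 33 haematopoietic transcription factor genes (42.4%) and 10 of 24 inflammatory and NF-kappaB genes (41.7%). Cell cycle and survival genes had 6 of 22 (27.3%, 13.2% to 48.2%). The intervals of the other 4 lists included the share of all genes, with 4 of 24 lymphoid genes (16.7%, 6.68% to 35.9%), 2 of 26 liver, muscle and neuronal genes (7.69%, 2.14% to 24.1%), 1 of 25 ribosomal protein genes (4%, 0.71% to 19.5%) and 0 of 23 erythroid and megakaryocytic genes (upper limit 14.3%).

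**Figure D5:**
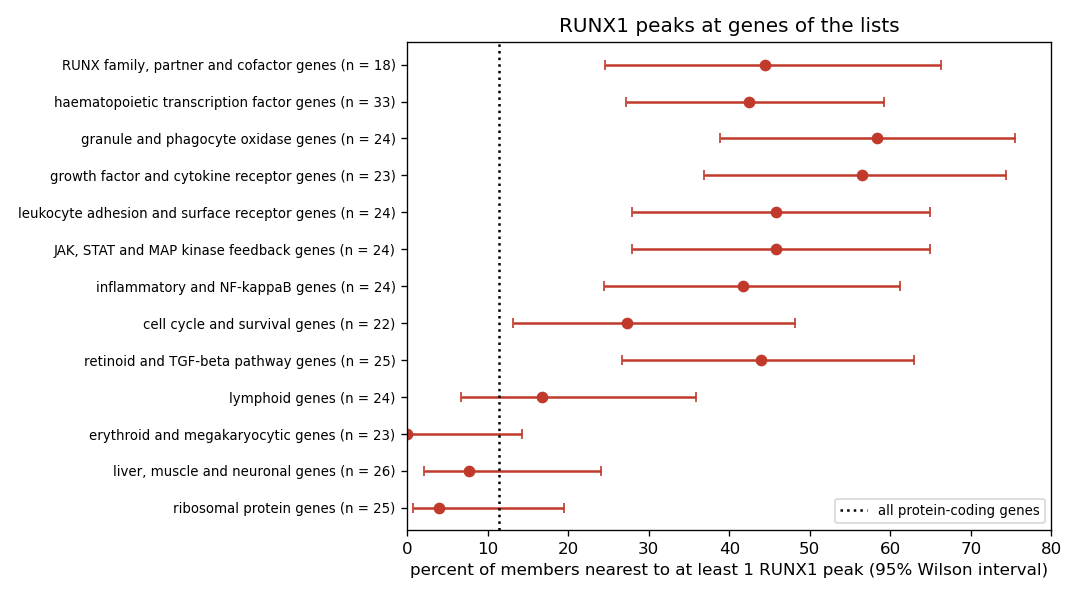
Percent of the members of each gene list that were nearest to at least 1 RUNX1 peak (x axis), as points with 95% Wilson intervals, and all protein-coding genes as a dotted line at 11.4%. The intervals of 9 lists lie above the line and those of 4 lists cross it.

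Genes that lie near no ChIP peak at all can be left out of the count. Among the 13368 genes nearest to a peak of any of the 4 lists, 17% had a RUNX1 peak, and the granule and oxidase genes had 63.6%. On this count the cell cycle and survival genes had 27.3% (13.2% to 48.2%), an interval that now included the share of all genes. Lymphoid genes had 26.7% (10.9% to 52%) and liver, muscle and neuronal genes 2 of 9 (22.2%, 6.32% to 54.7%), above the share of all genes, where the first count of the latter list was below it. Within 10 kb of its TSS a peak was found for 8.16% of all genes and for 11 of the 24 granule and oxidase genes (45.8%). At a −log10 p of 10 or more the share of all genes was 11.3%, and each list kept its count. With 4 or more peaks, 57 genes (0.284%) were counted over all, and a single member or a pair in 6 of the 13 lists. Those were RUNX1, SRGN, IL6R with IFNGR1, ITGB2, CCND3, and SKI with SMAD7. The lists and their members were chosen with earlier results of these data known, so no list was tested.

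The list members named below all had a peak, and members without one are not named. Of the granule genes, MPO, the myeloperoxidase of primary granules, had 3 peaks within 4056 bp of its TSS. The nearest, chr17:56358140-56358705 at 154 bp, was weak (42 tags, fold enrichment 5.47), and those 1046 and 4056 bp upstream had 157 and 131 tags, at 43.5 and 28.68. AZU1, another primary granule gene, had a peak 1223 bp upstream of its TSS at 79.8. SRGN, the granule proteoglycan serglycin, had 4 intergenic peaks between 11.93 and 25.99, 7728 to 26564 bp upstream. MMP9, a gelatinase of late granules, had a peak of 246 tags at 73.97, 3509 bp upstream, and a weaker one at 19.01. CYBB, the catalytic subunit of the phagocyte oxidase, had none near its TSS. Its 3 peaks lay 24765 to 33511 bp upstream, in the intron class, at 36.71, 39.68 and 41.27, all in every SKI list. NCF1, a cytosolic oxidase subunit gene with near-identical pseudogene copies, had 2 at 22.75 and 40.18, which makes their assignment uncertain. RAC2, the oxidase GTPase, had 3 peaks, and the one 57 bp from a TSS had 129 tags but a fold enrichment of 9.44.

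Among partners and cofactors of RUNX1, CBFA2T3, a corepressor of the ETO family, had the strongest peak, chr16:89044863-89045905, with 259 tags at 132.44. RUNX2 had 3 intronic peaks at 6.38, 10.22 and 18.91, and TLE4, a Groucho-type corepressor, 3 intronic peaks at 7.28, 38.85 and 12.65. EP300, a histone acetyltransferase, had 1 at 12.25. Of the transcription factor genes, CEBPE, a factor of late granulocyte maturation, had 2 intergenic peaks with 233 and 213 tags at 32.08 and 50.82, neither in every SKI list. GFI1, a repressor needed to form neutrophils, had a peak 33 bp from its TSS at 28.91 and others at 13.28 and 6.89. MYB, a progenitor factor, had a broad peak 6 bp from its TSS with 152 tags but a fold enrichment of 8.94. ETV6 had 3 peaks, the strongest in an intron at 54.17, LYL1 3 between 10.95 and 12.32, and EGR2 2 at 14.29 and 39.99.

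In the receptor and signalling lists, several members had a single strong peak. IL17RA, an interleukin-17 receptor chain, had 1 intronic peak of 280 tags at 93.07, CXCR4, the chemokine receptor that holds cells in the marrow, 1 intergenic peak at 61.11, and TYK2, a Janus kinase, 1 at 56.55. TNFRSF1A, a tumour necrosis factor receptor, had 3 intronic peaks in a row at 19.84, 23.27 and 27.31, and CCR2, a monocyte chemokine receptor, 2 at 30.84 and 14.29. DUSP10, a phosphatase that limits stress kinases, had 3 at 33.45, 69.33 and 41.27, and STAT3 3 at 13.63, 11.16 and 23.63. DUSP1, DUSP6 and SPRY1, which limit MAP kinase signalling, had highest values of 30.79, 22 and 32.74. BCL3, an atypical inhibitor of NF-kappaB, had 1 peak 1668 bp upstream of its TSS, chr19:45256510-45257302, with 243 tags at 148.69. TRAF1 had 2 at 28.71 and 34.01, CCL2 3 between 9.92 and 21.75, NFKB1 1 at 18.57, and NLRP3 a second at 7.94.

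RXRA, the partner of the retinoic acid receptors, had 3 peaks at 52.52, 109.52 and 45.83, the highest at chr9:137295619-137296270 in an exon, and all were in every SKI list. RARA, the receptor itself, had 1 at 22.44, 227 bp from a TSS. SMAD2 and SMAD3, signal carriers of TGF-beta, had 2 each, up to 19.58 and 26.79. Of the surface genes, CD38, a cell surface enzyme, had 2 peaks at 35.8 and 35.71, CD44 2 at 9.26 and 49.47, PTPRC 2 at 12.43 and 21.93, and the Fc receptor genes FCGR1A and FCGR2A had highest values of 9.83 and 21.76. These 2 have near-identical relatives, so their assignment is uncertain. In the cell cycle list CCND3 stood apart from CCND2 (26.81), CDK6 (8.93), E2F1 (6.67), BID (31.75) and the 3 peaks of PMAIP1 (8.93 to 12.32). Of other lists, members of the lymphoid list with a peak were IL7R (70.11), CD3E (27.31), CD2 (13.45) and CD79A (9.32), and those of the liver, muscle and neuronal list were ACTN2 (33.33) and SNAP25 (20.24), with 1 peak each.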

How the data were processed

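ChIP-seq peak lists of 4 HL60 samples were used, 1 for RUNX1 and 3 for SKI, grouped by the sample titles. The submitters' processing notes name MACS 1.4, Bowtie2, deepTools and bcl2fastq, and the builds GRCh37 and hg19. The control library and the peak threshold are not named in the labels, and the depth of sequencing is likewise not given in the sources used here. Per the file headers, each deposited peak has a −log10 p-value, a count of tags and a fold enrichment, which is a ratio to the background. The RUNX1 −log10 p-values ran from 5.006 to 323.306, and 291 peaks stood at exactly 310. A position class, a nearest gene and a TSS distance, which followed the summit, were read as deposited, and the FDR column was not used. Of the RUNX1 peaks, 15 lay on unplaced contigs, 11 on Y (counted and not named) and 4 had no transcript.

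Intervals of shares are 95% Wilson intervals and cover only counting error. An overlap was at least 1 bp. The members and lists were chosen with earlier results of these data known. Named were the 15 gene names with most peaks, the 20 peaks with most tags, the 10 widest, RUNX1, up to 6 members a list and the promoters of 5 genes with the strongest peak within 250 bp of a TSS, of which the one with a match is printed. Others were chosen after their values were seen, and a few selected genes are not reported here. All 315 members of the 13 lists, and 95.6% of 2360 nearest protein-coding genes, matched a symbol of a RefSeq table of another build (GRCh38.p14). Alternatives were a −log10 p of at least 10, tag, fold, distance and overlap settings, other rankings and leaving out each SKI list. The scripts were tested on simulated data. Python 3.11.15, pandas 2.3.3, scipy 1.17.1, numpy 2.4.6 and matplotlib 3.10.9 were used.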

Additional observations from a re-analysis of the deposited data

How the results depend on the processing

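The share of RUNX1 peaks within 1 kb of a TSS, 19.4%, was 13.9% for 500 bp and 29.9% for 2500 bp. Of the 20 peaks with most tags, 5 remained when ranked by fold enrichment, 10 by tags per kb and 0 by −log10 p, where all 20 tie at 310 and other peaks have higher values. The share of promoters with a RUNX match, 29.6%, was 15% with TGTGGT alone and 42.2% for summits from 250 bp before to 50 bp after the deposited TSS. Peaks of names with 4 or more that overlapped SKI in every list made up 53.6% (49.3% to 57.9%), and 56% to 66.3% without 1 list (66.3% without unmodified replicate 2, 60.2% without unmodified replicate 1). For single genes with a fold enrichment of 10 or more it was 59.7%. Exonic peaks against unmodified replicate 1 changed sides, from an odds ratio of 0.982 to 1.01 at a −log10 p of at least 10 (Fisher's exact test, adjusted p = 0.827), neither past the threshold. With SKI lists held to the length of the RUNX1 list, exonic peaks against control cells and upstream peaks against unmodified replicate 2 no longer passed (odds ratio 1.06 and 1.06), and upstream peaks against unmodified replicate 1 did (1.2). The cause was not tested. The number of names with 4 or more peaks, 93, ran from 65, with peaks less than 1 kb apart counted once, to 90, with a −log10 p of at least 10. Of the gene lists, 10 of 13 had a share above that of all genes, and 10 to 11 under the alternatives. The range of median fold enrichment over the classes was 3.13, and 3 without chromosome X. Gene ID, both fold minimums, the background of near genes, single IDs and the class ranges were alternatives chosen after seeing the data. Depth is unknown, and the weakest listed peak has 30 tags, so a gene with no peak may hold weaker binding that was not listed.
No paired analysis was possible because RUNX1 was mapped in a single sample and its list shares fewer than 2 replicate numbers with any SKI group.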

Other observations

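Some RUNX1 peaks stood in groups along the chromosome, but most stood alone. Peaks on chromosome 8, Y and unplaced contigs, 119 in all, were left out here and in the comparison of chromosomes. Of the 5462 considered, 3961 stood alone and 1501 (27.5%) had another peak less than 12500 bp away. Groups of 4 or more peaks numbered 38. The same share was not counted for the SKI lists. After PPP1R2, RP11-96F8.1 and MBP, the next by number were 2 groups of 6. The first spanned 15277 bp of chromosome 17 (56406837 to 56422113) over the blood microRNA gene MIR142, with BZRAP1-AS1, MIR4736 and SUPT4H1 as the other nearest genes. Its peaks had fold enrichments of 9.45 to 33.87, and 1 of the 6 lay in all SKI lists. The other spanned 25185 bp of chromosome 19 at LAIR1, a collagen receptor gene of leukocytes, with fold enrichments of 5.95 to 55.31 and 5 peaks in all SKI lists. A group of 5 at GPR183, an oxysterol receptor gene, and UBAC2 on chromosome 13 lay between 5.72 and 23.09. Genes of these groups were chosen after their values were seen.

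Median fold enrichment differed between chromosomes more than tags did. It was 31.75 for the 103 peaks of X and 23.31 on chromosome 5, against 11.9 on chromosome 18, 13.32 on 22 and 15.08 on 13. Median tags on these were 57, 57, 58, 58 and 59. In the SKI lists the medians of X were 24.725, 18.92 and 20.18 (unmodified replicates 1 and 2, control cells), and those of chromosome 18 were 14.28, 7.98 and 8.16.

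The 10 widest RUNX1 peaks included 5 that no SKI peak overlapped, and these were the 5 widest. Of all RUNX1 peaks, 4.87% lay in no SKI list. The 5 widest were 2 peaks at PPP1R2 (2807 and 2015 bp), and 1 each assigned to ZNF462 (1975 bp), RPAP3 (1862 bp) and RPL21P109 (1813 bp). Their fold enrichments were 6.14, 8.35, 10.67, 7.88 and 20.13. The others were assigned to TSPAN9-IT1 (1786 bp), SNRPFP3 (1733 bp), WI2-87327B8.1 (1658 bp), RUNX2 and BHLHE40 (1621 bp each). The BHLHE40 peak, at a clock and stress response factor gene, lay 4 bp from its TSS, at a fold enrichment of 16.08.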
